A study of Homo sapiens with 12 samples.

Results

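Nectins, afadin, the catenins and vinculin build the adherens junction, the belt of contacts that joins epithelial cells and ties their actin filaments together. The 9 genes described here are NECTIN1, NECTIN2, NECTIN3, AFDN, CTNNA1, CTNNB1, CTNND1, JUP and VCL. They were taken from the array by their gene symbol: a probe set, a group of short probes summarised as 1 signal, counted as a member if it was annotated to 1 of these symbols and to no other. This gave 28 of the 54675 probe sets, of which 41091 carry a single symbol. NECTIN1 and NECTIN2 have 4 each, NECTIN3 has 2, AFDN has 7, CTNNA1 has 5, CTNNB1 has 3, JUP has 1 and VCL has 2. CTNND1 has 0 of its own, because its 4 probe sets are also annotated to a readthrough transcript with the neighbouring gene TMX2.

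Nectins are immunoglobulin-type adhesion molecules that bind each other across neighbouring cells, and afadin links their tails to actin. Beta-catenin and plakoglobin bind the tail of cadherins, p120 catenin keeps cadherins at the surface, and alpha-catenin joins the complex to actin, where vinculin is recruited under tension. Beta-catenin is also the transcriptional partner of LEF and TCF factors in Wnt signalling, and loss of junctions is a known feature of invasive carcinoma cells.

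The study asked how a direct-current electric field of physiological strength alters transcripts of human lung adenocarcinoma cells. The 4 groups, of 3 arrays each, were CL1-5 cells under a field of 300 mV/mm, CL1-5 cells at 0 mV/mm, CL1-0 cells under a field of 300 mV/mm and CL1-0 cells at 0 mV/mm. CL1-0 and CL1-5 are sublines of 1 lung adenocarcinoma line, and CL1-5 is known as the more invasive of the pair. In all 4 groups the cells were kept in a microfluidic chip for 2 h in serum-free medium, at either field strength, and were then lifted with trypsin before RNA isolation. The labels call the 3 arrays of a group biological replicates, and each line is 1 culture line, so a difference between lines belongs to these lines.

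Values are array signals, whose median on an array lay between 60.7 and 72.4, and differences are given on the log2 scale. A probe set was tested if it was above its own array's median on at least 3 arrays. This left 31890 probe sets, 22 of the 28 members among them, and each of the 8 genes kept at least 1. The replicate 1 arrays of all 4 groups lacked the signal of an added control RNA (dap, 1.37 to 13.3 against 1640 to 2330 on the others) and stood apart on the second principal component, which held 26.7% of the variance. Values without these arrays are given for the members the results turn on and where they end or give a call. In whole-culture RNA, fewer expressing cells and less RNA per cell cannot be told apart.

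The epithelial markers did not differ one way between the lines. EPCAM, an epithelial adhesion molecule, was at a log2 signal of 4.86 ± 0.75 under the field and 5.18 ± 0.78 without it in CL1-5, against 9.28 ± 1.11 and 9.14 ± 1.81 in CL1-0 (SD, n = 3). It differed by -3.96 ± 0.84 (SE) without the field and -4.42 ± 0.84 under it (limma adjusted p = 0.00898 and 0.00459). EPCAM was tested through CL1-0 arrays alone, so a difference of this sign was built into its being tested. With values below the array median raised to it, the differences were -3.08 and -3.24. CDH1, also on the epithelial list, was lower in CL1-5 too, by -3.46 ± 0.99 without the field and -3.61 ± 0.99 under it. Its limma adjusted p was 0.0413 and 0.0316, so the epithelial markers that passed the reported fit, EPCAM and CDH1, were both lower in CL1-5. The keratins KRT8 and KRT18 differed the other way, by 2.15 ± 0.83 and 1.34 ± 0.69 without the field. Under it they differed by 1.41 ± 0.83 and 0.90 ± 0.69. KRT7 differed by -0.14 ± 0.28 without the field and -0.24 ± 0.28 under it, and none of these keratins passed the test. With the replicate number as a block, KRT8 passed it without the field (limma adjusted p = 0.0202). The 6 epithelial markers summed to signals of 16400 to 32700 in CL1-5 and 3190 to 24700 in CL1-0, with EPCAM and KRT19 below the array median on all arrays of CL1-5. The 3 endothelial markers summed to 201 to 1620 in CL1-5 and 94.6 to 180 in CL1-0, with VWF and CDH5 below the median on all 12 arrays. The other, PECAM1, was above the median on all 12. It differed by 2.05 ± 0.76 without the field and 1.94 ± 0.76 under it (limma adjusted p = 0.109 and 0.122, and 0.00307 and 0.00385 with the replicate block). The 3 leukocyte markers on the array summed to 89.1 to 168 in CL1-5 and 73.8 to 150 in CL1-0, and the 4 fibroblast markers to 300 to 487 in CL1-5 and 362 to 603 in CL1-0. The part of these markers in the differences between the lines was not tested.

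Among nectins and catenins, the lines differed most in NECTIN3 and JUP, in opposite directions. NECTIN3, the nectin that pairs with nectins 1 and 2 on the facing cell, was 8.03-fold higher in CL1-5 than in CL1-0 without the field. JUP, plakoglobin, the catenin shared by adherens junctions and desmosomes, was 4.81-fold lower in CL1-5. NECTIN2 was higher in CL1-5 by the same test, through 1 of its 4 probe sets. The field passed the test for none of the members in either line.

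Of the 22 members tested, 4 passed the test between the lines without the field, at a Benjamini-Hochberg adjusted p of 0.05 in limma over all probe sets: 3 were higher and 1 was lower in CL1-5. The share of all tested probe sets that passed was 12.1%, with 6.53% higher and 5.58% lower. Under the field 4 members passed as well, 2 higher and 2 lower, where 13.4% of all tested probe sets passed, 7.03% higher and 6.41% lower. The median difference of the members was 0.20 without the field and 0.21 under it, and that of all tested probe sets was -0.01 and -0.08. With the replicate number as a block, 9 members passed without the field (7 higher and 2 lower, where 28.5% of all tested probe sets passed, 14.2% higher and 14.4% lower). Under the field 9 passed as well with the block (6 higher and 3 lower, where 31.6% passed, 14.7% higher and 16.9% lower). The 2 comparisons are of different arrays, but both come from 1 fit whose spread is pooled over all 12 arrays, so they are not separate tests. Each also shares arrays with the field comparison of either line.

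The stretches around the annotated start sites of 4 genes are shown. NECTIN3, NECTIN2 and JUP passed the test between the lines in both field states, and AFDN, which did not pass it, is shown for its matches to the letters below, chosen after these were seen. Each runs 300 bases, from 250 before to 50 after a start site, 5′ to 3′ on the gene's strand, taken from RefSeq on GRCh38.p14. Capitals mark the letters CAGGTG or their reverse complement CACCTG, the E-box that the Snail and ZEB repressors of CDH1 are known to bind.
NECTIN3, chr3:111071566-111071865, plus strand: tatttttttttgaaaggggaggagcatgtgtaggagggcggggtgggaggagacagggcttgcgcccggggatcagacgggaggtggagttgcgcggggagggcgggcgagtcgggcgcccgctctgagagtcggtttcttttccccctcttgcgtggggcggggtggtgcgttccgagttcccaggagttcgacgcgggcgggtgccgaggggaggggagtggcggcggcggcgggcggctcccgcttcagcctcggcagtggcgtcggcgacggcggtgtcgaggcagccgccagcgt
NECTIN2, chr19:44846047-44846346, plus strand: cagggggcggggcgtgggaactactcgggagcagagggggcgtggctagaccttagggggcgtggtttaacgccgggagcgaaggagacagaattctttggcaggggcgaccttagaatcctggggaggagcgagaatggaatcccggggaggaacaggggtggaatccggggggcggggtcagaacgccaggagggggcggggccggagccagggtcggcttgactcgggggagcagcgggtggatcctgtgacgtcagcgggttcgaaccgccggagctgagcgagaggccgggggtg
AFDN, chr6:167827385-167827684, plus strand: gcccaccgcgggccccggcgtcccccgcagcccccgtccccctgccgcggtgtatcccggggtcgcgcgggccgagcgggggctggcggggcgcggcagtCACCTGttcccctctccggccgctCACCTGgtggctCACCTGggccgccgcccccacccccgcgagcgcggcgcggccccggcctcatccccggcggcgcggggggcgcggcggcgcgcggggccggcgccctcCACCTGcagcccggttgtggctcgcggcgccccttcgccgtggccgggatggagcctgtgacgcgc
JUP, start site 1, chr17:41786662-41786961, minus strand: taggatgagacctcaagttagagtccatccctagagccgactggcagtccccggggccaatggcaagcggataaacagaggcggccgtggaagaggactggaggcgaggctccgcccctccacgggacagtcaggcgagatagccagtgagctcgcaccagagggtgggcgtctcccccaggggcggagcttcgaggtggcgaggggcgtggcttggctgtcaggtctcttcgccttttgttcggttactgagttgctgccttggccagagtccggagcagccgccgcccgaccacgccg
JUP, start site 2, chr17:41785927-41786226, minus strand: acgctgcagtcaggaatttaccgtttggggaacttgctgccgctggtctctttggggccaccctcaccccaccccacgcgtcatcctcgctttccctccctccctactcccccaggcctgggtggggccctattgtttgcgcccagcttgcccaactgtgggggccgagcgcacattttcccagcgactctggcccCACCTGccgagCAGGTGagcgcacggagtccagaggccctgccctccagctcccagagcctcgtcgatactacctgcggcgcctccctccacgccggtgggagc
The E-box letters were in 20.6% of 35116 such stretches, searched on both strands. The AFDN stretch held 4 matches, at 150, 126, 114 and 16 bases before the start site. JUP held 2 at its second start site, at 54 and 43 bases before it, and none at the first, and NECTIN3 held none. NECTIN2, CTNNA1, CTNNB1 and VCL held none either. The TCF/LEF letters ATCAAAG, in 2.62% of stretches, occurred once each at 2 of the 4 start sites of CTNNA1. The stretches of these 2 sites overlap, so both matches can be the same letters. No other start site of the 7 genes with an entry held them. The GC box letters GGGCGG, in 45.0% of stretches, occurred 5 times in NECTIN3, 3 times in NECTIN2, once in AFDN, 3 times at the first start site of JUP and 0 times at its second. It occurred 9, 4, 0 and 0 times at the 4 start sites of CTNNA1, and 3 times each in CTNNB1 and VCL. NECTIN1 has no entry in the table. These are matches of letters, not binding sites.

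NECTIN3 was high in CL1-5 in both of its probe sets. By 213325_at it had signals of 173, 571 and 669 in CL1-5 under the field, against 70.7, 102 and 97.2 in CL1-0 under the field, for replicates 1, 2 and 3. Without the field the signals were 449, 656 and 605 in CL1-5, against 42.8, 89.2 and 90.2 in CL1-0. Every CL1-5 array was above every CL1-0 array, and the lowest CL1-5 value was that of replicate 1 under the field. The difference between the lines was 3.01 ± 0.49 (SE) without the field and 2.19 ± 0.49 under it, a 4.55-fold difference, with limma adjusted p of 0.00179 and 0.012. On the arrays with the control RNA signal it was 2.81 ± 0.25 without the field and 2.63 ± 0.25 under it, and in the replicate 1 pair it was 3.39 and 1.29. Without replicate 3 of CL1-5 under the field, the difference under the field was 1.82, with an adjusted p of 0.0562.

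The second NECTIN3 probe set, 227503_at, had signals of 122, 207 and 399 in CL1-5 under the field, against 48.5, 91.1 and 89.7 in CL1-0. Without the field they were 159, 340.2 and 343 in CL1-5, against 50.8, 103 and 49.7 in CL1-0. The CL1-5 arrays were again all above the CL1-0 arrays of the same field state. Its difference was 2.05 ± 0.52 without the field (limma adjusted p = 0.0223) and 1.55 ± 0.52 under it (adjusted p = 0.0701, and 0.00566 with the replicate block). On the arrays with the control RNA signal the differences were 2.25 ± 0.42 and 1.67 ± 0.42 (limma adjusted p = 0.00326 and 0.015). The call without the field was lost when replicate 2 or 3 of CL1-5 or replicate 1 or 3 of CL1-0 without the field was left out, with adjusted p of 0.0684 to 0.0904. Across the 12 arrays the probe sets of NECTIN3 correlated at r = 0.942, a description over 2 lines that differ in level.

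NECTIN2, the nectin also known as a ligand of immune receptors, was read by 4 probe sets that did not all give the same picture. By 225418_at it had signals of 1144, 1241 and 1453 in CL1-5 under the field, against 525, 386 and 471 in CL1-0 under the field. Without the field the signals were 1610.4, 1106 and 1368 in CL1-5, against 682, 419 and 278 in CL1-0. The lowest CL1-5 array lay above the highest CL1-0 array. The difference was 1.65 ± 0.31 without the field, 3.13-fold, and 1.48 ± 0.31 under it, 2.79-fold, with limma adjusted p of 0.00454 and 0.0084. It was 1.85 ± 0.24 and 1.66 ± 0.24 on the arrays with the control RNA signal, and 1.24 and 1.12 in the replicate 1 pair.

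The other NECTIN2 probe sets did not pass the test. The set with the highest mean signal, 203149_at, differed by 0.07 ± 0.53 without the field and 0.41 ± 0.53 under it, with limma adjusted p of 0.967 and 0.701. Its replicate 1 signals, 1761 and 2366 in CL1-5 under and without the field and 1486 and 1648 in CL1-0, were above the 589 to 1034 of every other array. The sets 232079_s_at and 232078_at differed by 1.25 ± 0.57 and 1.39 ± 0.71 without the field, and by 1.44 ± 0.57 and 1.32 ± 0.71 under it. Their limma adjusted p lay between 0.125 and 0.275, and with the replicate block between 0.00489 and 0.0221. On the arrays with the control RNA signal, 232079_s_at differed by 1.14 ± 0.35 without the field and 1.91 ± 0.35 under it (limma adjusted p = 0.0377 and 0.00274). There 232078_at differed by 1.29 ± 0.48 and 1.80 ± 0.48 (limma adjusted p = 0.0782 and 0.02). With all 4 sets averaged, NECTIN2 differed by 1.09 ± 0.48 without the field (limma adjusted p = 0.154) and 1.16 ± 0.48 under it (adjusted p = 0.12).

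NECTIN1, which pairs with NECTIN3 across cells and is an entry receptor of herpes simplex virus, was the member with the smallest unadjusted p for the field. By 225211_at it had signals of 135, 87.8 and 127 in CL1-5 under the field, against 278, 202 and 231 in CL1-5 without it. In CL1-0 the signals were 295, 218 and 221 under the field, against 239, 132 and 159 without it. In CL1-5 all field arrays lay below all arrays without the field, and in CL1-0 the groups overlapped. The group means of log2 signal were 6.84 ± 0.34 for CL1-5 under the field, 7.88 ± 0.23 for CL1-5 without it, 7.92 ± 0.25 for CL1-0 under the field and 7.42 ± 0.44 for CL1-0 without it (SD, n = 3). From high to low the order was CL1-0 under the field, CL1-5 without it, CL1-0 without it and CL1-5 under it. The arrays of each neighbouring pair in that order overlapped, so no neighbours differed beyond their spread.

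The field difference of NECTIN1 in CL1-5 was -1.04 ± 0.31 (SE; unadjusted p of 0.00663), and it did not pass the correction over all probe sets (limma adjusted p = 1). Its 3 pairs of the same replicate number gave -1.04, -1.20 and -0.87. In CL1-0 the field difference was 0.50 ± 0.31 (unadjusted limma p of 0.138), with pairs of 0.30, 0.73 and 0.47. The difference between these field responses was -1.54 ± 0.45 (unadjusted limma p of 0.00495, adjusted p = 0.9999, and 0.881 with the replicate block).

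**Figure D1:**
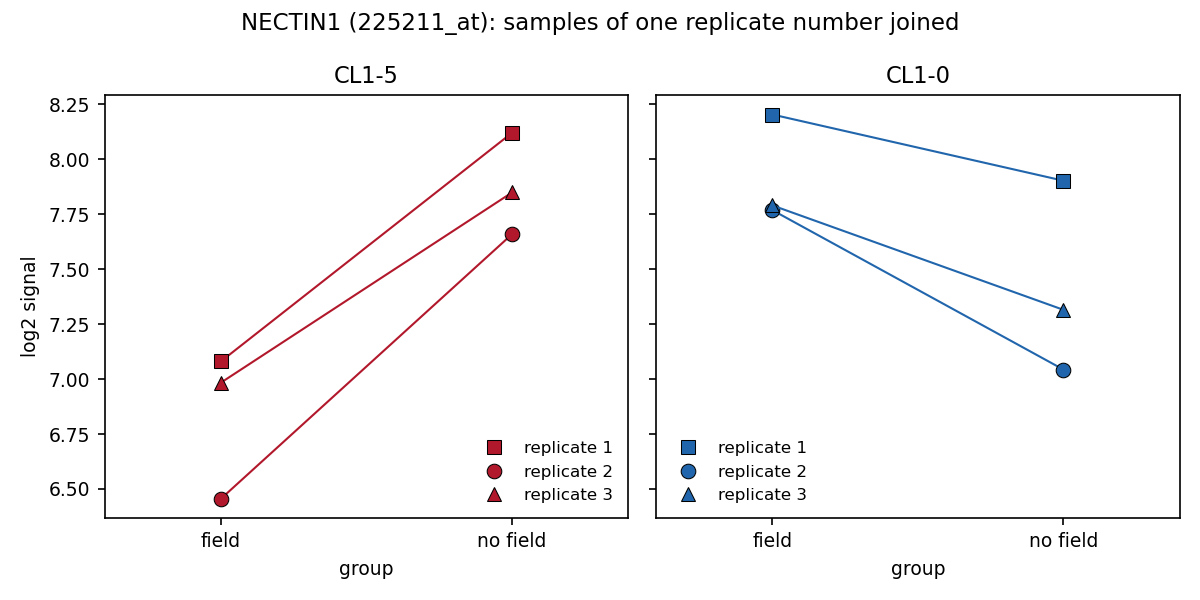
Log2 signal of NECTIN1 probe set 225211_at (y axis) under the field and without it (x axis), in CL1-5 (left) and CL1-0 (right), with samples of 1 replicate number joined by a line. The field end minus the other end is -1.20 to -0.87 for the 3 pairs of CL1-5 and 0.30 to 0.73 for those of CL1-0.

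Between the lines, NECTIN1 225211_at differed by -1.08 ± 0.31 under the field, 2.12-fold lower in CL1-5, with a limma adjusted p of 0.0417. Without the field it differed by 0.46 ± 0.31 (adjusted p = 0.45). The call under the field was lost in 10 of 24 alternatives, with adjusted p up to 0.138 when replicate 2 of CL1-5 under the field was left out, and it was 0.00336 with the replicate block. The difference under the field was -1.06 ± 0.31 on the arrays with the control RNA signal, with a limma adjusted p of 0.0292. The other NECTIN1 probe set tested, 211846_s_at, was above the array median on only 3 of the 12 arrays, with signals of 10.5 to 98.7. This set differed by 0.32 ± 0.83 under the field and -0.62 ± 0.83 without it. It correlated with 225211_at at r = 0.014 over the 12 arrays. The remaining NECTIN1 sets, 208455_at and 211845_at, had signals of 2.39 to 50 and 2.87 to 12.2 and were not tested. With the tested sets averaged, NECTIN1 differed by -0.38 ± 0.46 under the field (limma adjusted p = 0.635) and -0.08 ± 0.46 without it (adjusted p = 0.94). On the arrays with the control RNA signal 211846_s_at differed by 1.75 ± 0.71 under the field (limma adjusted p = 0.103). Its sign was opposite to that of 225211_at, but its CL1-0 signals there were 10.9 and 35.0, both below their array's median.

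AFDN, afadin, had a higher mean in CL1-5 by its brightest probe set, in a difference that did not pass the test. By 224685_at it had signals of 2658, 1354 and 1859 in CL1-5 under the field, against 1460.1, 872 and 1114 in CL1-0 under the field. Without the field the signals were 2547, 1323 and 2193 in CL1-5, against 1262, 770.0 and 979.8 in CL1-0. Within each replicate number the CL1-5 value was the higher, and only without the field were the groups apart. The difference was 0.99 ± 0.33 without the field, 1.98-fold, and 0.75 ± 0.33 under it, with limma adjusted p of 0.0816 and 0.183. With the replicate block these were 0.000179 and 0.00123, and on the arrays with the control RNA signal alone the differences were 0.97 ± 0.27 (limma adjusted p = 0.0237) and 0.69 ± 0.27 (adjusted p = 0.0865). Of the other AFDN sets, 208512_s_at differed by 2.06 ± 0.96 and 0.97 ± 0.96, 214939_x_at by 0.70 ± 0.86 and 0.68 ± 0.86, and 230622_at by -0.02 ± 0.40 and -0.51 ± 0.40, without and under the field. None of these passed the test, with limma adjusted p from 0.218 to 0.989, while 208512_s_at without the field had 0.0331 with the replicate block. The AFDN sets 238871_at, 229775_s_at and 215904_at were dim, with signals of 1.75 to 79.0, and were not tested.

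**Figure D2:**
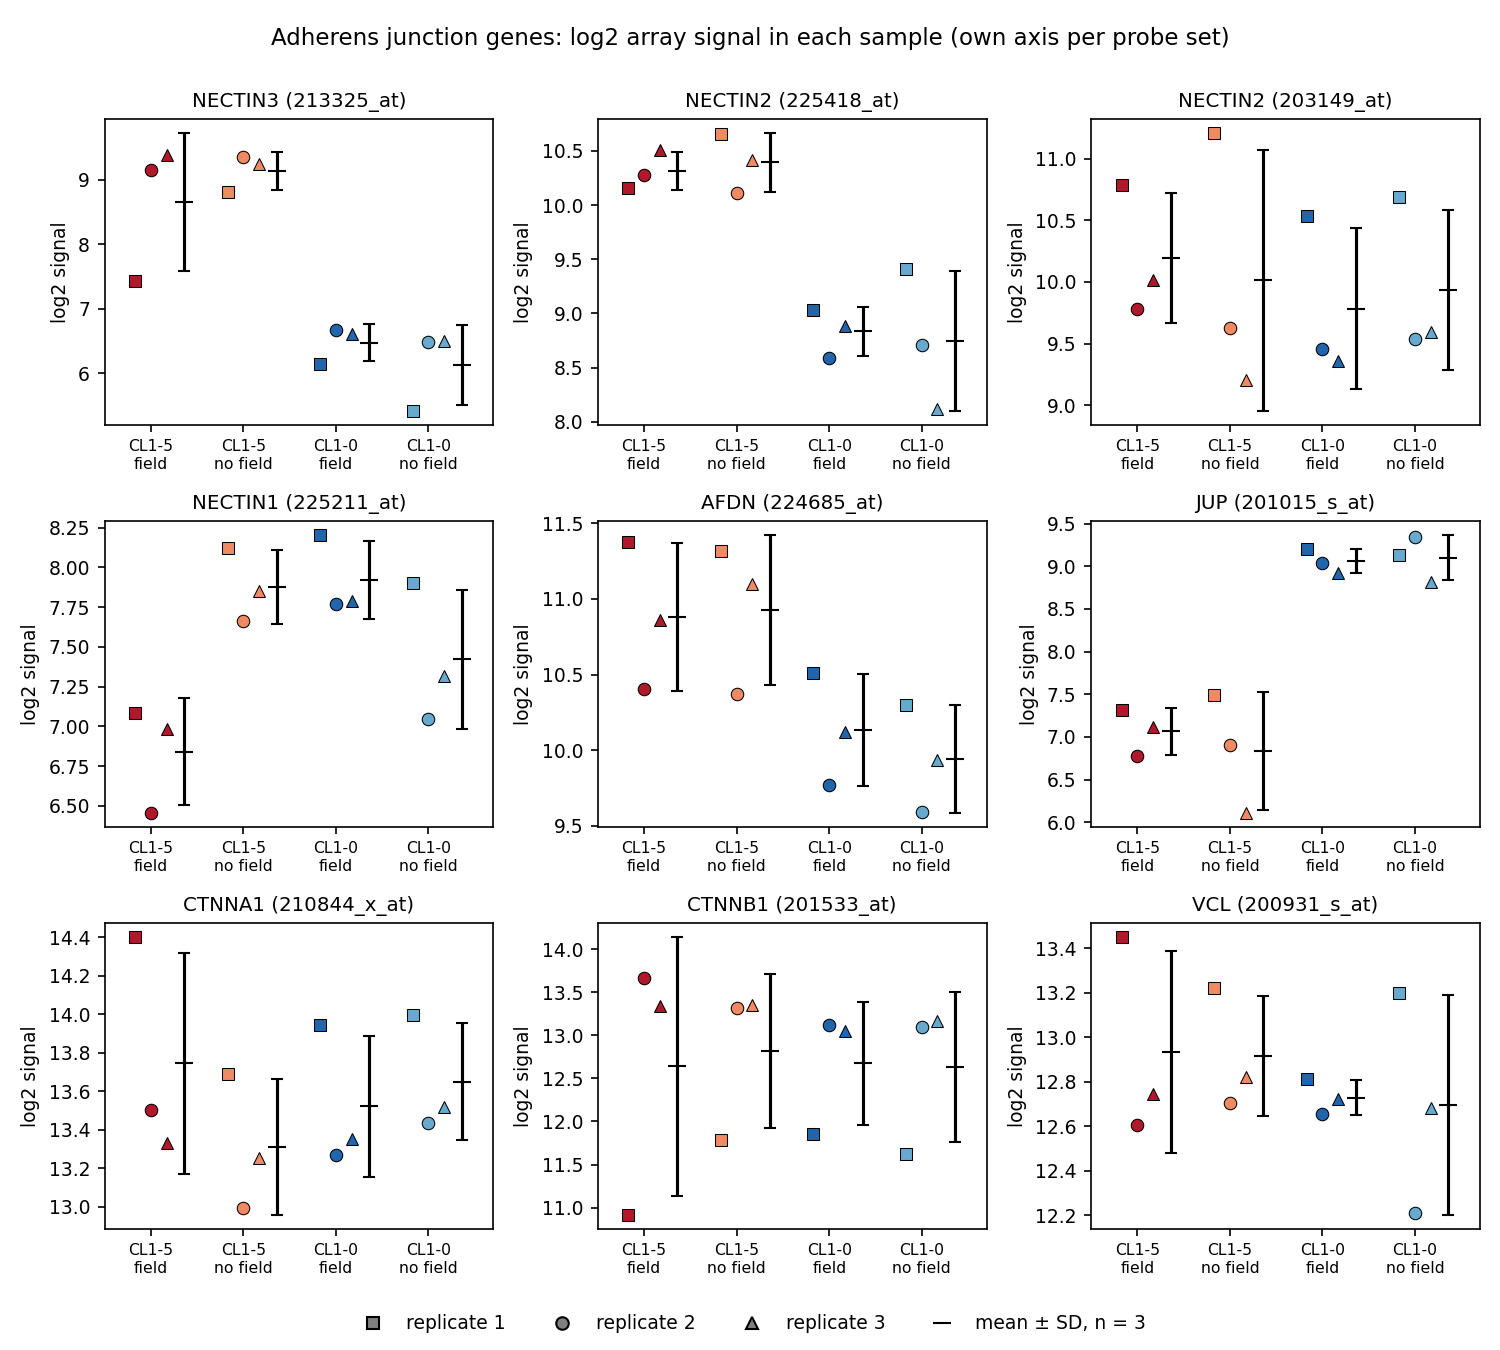
Log2 signal (y axis, own scale in each panel) of 9 probe sets of the 8 genes in CL1-5 under the field, CL1-5 without it, CL1-0 under the field and CL1-0 without it (x axis), with 1 point per array, the shape giving the replicate number, and bars for mean ± SD (n = 3). NECTIN3 213325_at and NECTIN2 225418_at lie higher and JUP lies lower in all 6 CL1-5 arrays, and replicate 1 is the lowest point of CTNNB1 in all 4 groups.

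JUP had the smallest p of the members in both comparisons of the lines. Its single probe set, 201015_s_at, had signals of 159, 109 and 139 in CL1-5 under the field, against 589.6, 527 and 486 in CL1-0 under the field. Without the field the signals were 179, 119.7 and 69.1 in CL1-5, against 562, 651 and 451 in CL1-0. The highest CL1-5 array lay below the lowest CL1-0 array. The difference was -2.27 ± 0.34 without the field and -1.99 ± 0.34 under it, 3.97-fold lower, with limma adjusted p of 0.00102 and 0.0025. It was -2.58 ± 0.33 and -2.04 ± 0.33 on the arrays with the control RNA signal, and -1.65 and -1.89 in the replicate 1 pair. Under all 24 alternatives it passed the test, with an adjusted p of at most 0.0131. The field difference of JUP was 0.23 ± 0.34 in CL1-5 and -0.04 ± 0.34 in CL1-0.

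**Figure D3:**
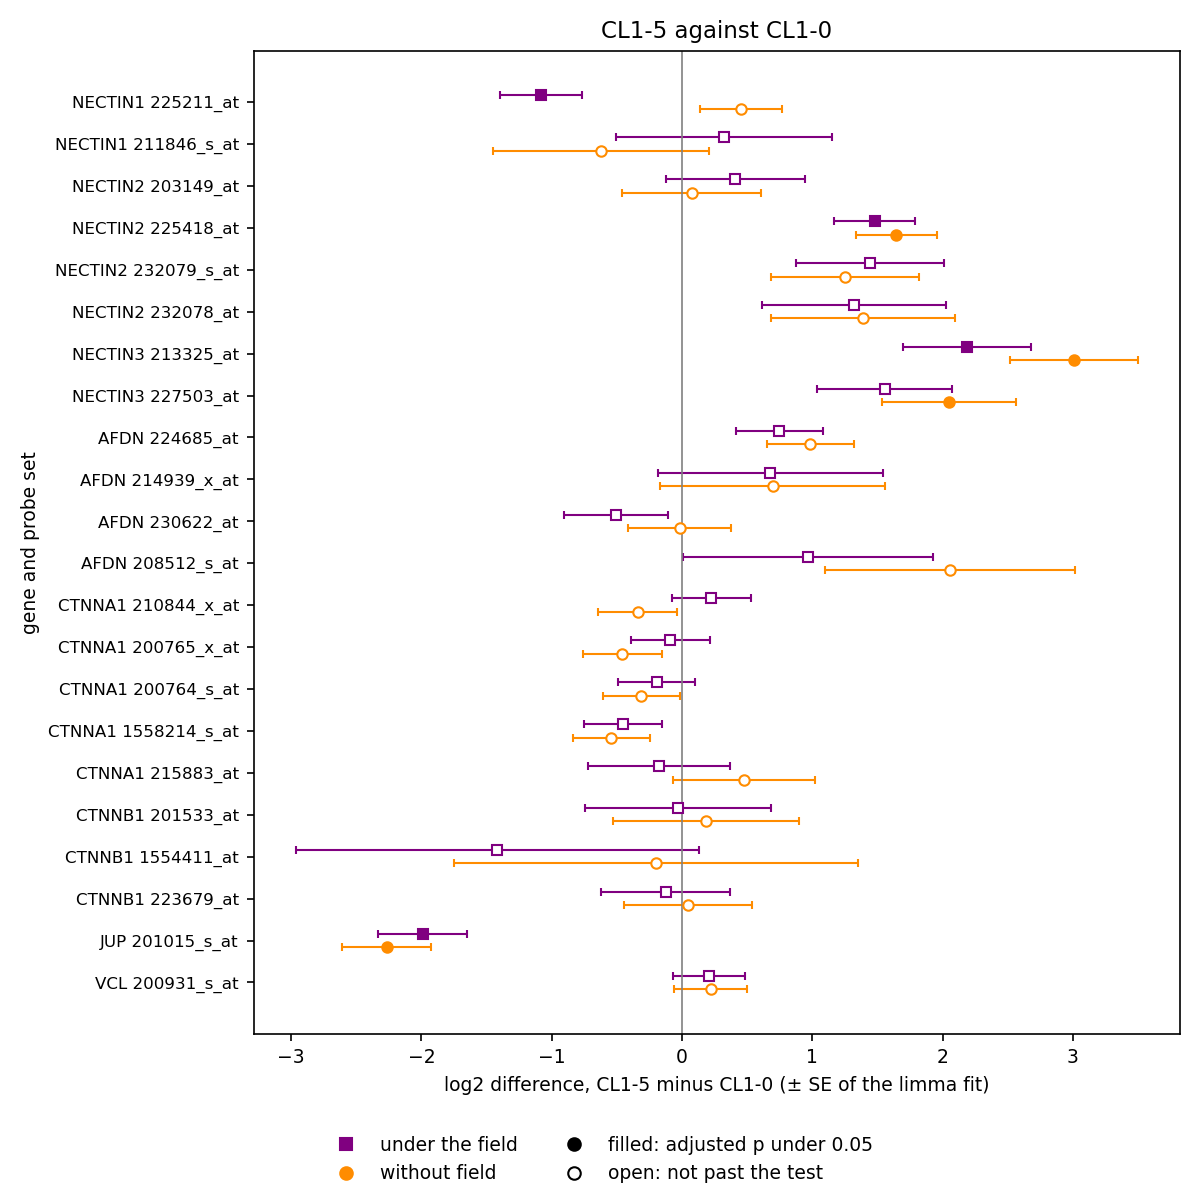
Log2 difference of CL1-5 minus CL1-0 (x axis, ± SE of the limma fit) for the 22 tested probe sets (y axis), under the field (squares) and without it (circles), filled where the limma adjusted p was under 0.05. NECTIN3 213325_at lies farthest to the right at 3.01 without the field and 2.19 under it, and JUP farthest to the left at -2.27 and -1.99.

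CTNNB1, beta-catenin, varied more with the replicate number than with the line. By 201533_at it had signals of 1933, 12949 and 10405 in CL1-5 under the field, against 3693, 8893 and 8492 in CL1-0 under the field. Without the field the signals were 3528, 10213 and 10449 in CL1-5, against 3152, 8778 and 9226 in CL1-0. Replicate 1 was the lowest array in all 4 groups, and the lines overlapped. The difference between the lines was 0.19 ± 0.71 without the field and -0.03 ± 0.71 under it (95% interval -1.59 to 1.53). On the arrays with the control RNA signal it was 0.20 ± 0.12 without the field and 0.42 ± 0.12 under it, with the difference under the field at a limma adjusted p of 0.0292.

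A second CTNNB1 probe set, 1554411_at, showed the same split: 11.9, 48.1, 101 and 48.4 on the replicate 1 arrays of CL1-5 under the field, CL1-5 without it, CL1-0 under the field and CL1-0 without it, and 462 to 771 on the other 8. It correlated with 201533_at at r = 0.955 over the 12 arrays. Its differences were -0.20 ± 1.55 without the field and -1.42 ± 1.55 under it, where the limma adjusted p was 0.635, or 0.0168 with the replicate block. Its pairs under the field gave -3.08, -0.45 and -0.73, and on the arrays with the control RNA signal the difference was -0.59 ± 0.20 (limma adjusted p = 0.0518). The third set, 223679_at, ran the other way over the arrays, at r = -0.606 with 201533_at, and differed by 0.04 ± 0.49 and -0.13 ± 0.49.

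Replicate 1 lay outside replicates 2 and 3 in the same direction in all 4 groups for 14 of the 22 members: above them in 11 and below them in 3. Over all tested probe sets the shares were 22.7% above and 18.7% below. The 3 below were NECTIN3 213325_at and the CTNNB1 sets 201533_at and 1554411_at. Probe sets of CTNNA1, AFDN and NECTIN2 were among those above. The part of this in each line or field difference was not tested beyond the values without replicate 1 given above.

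**Figure D4:**
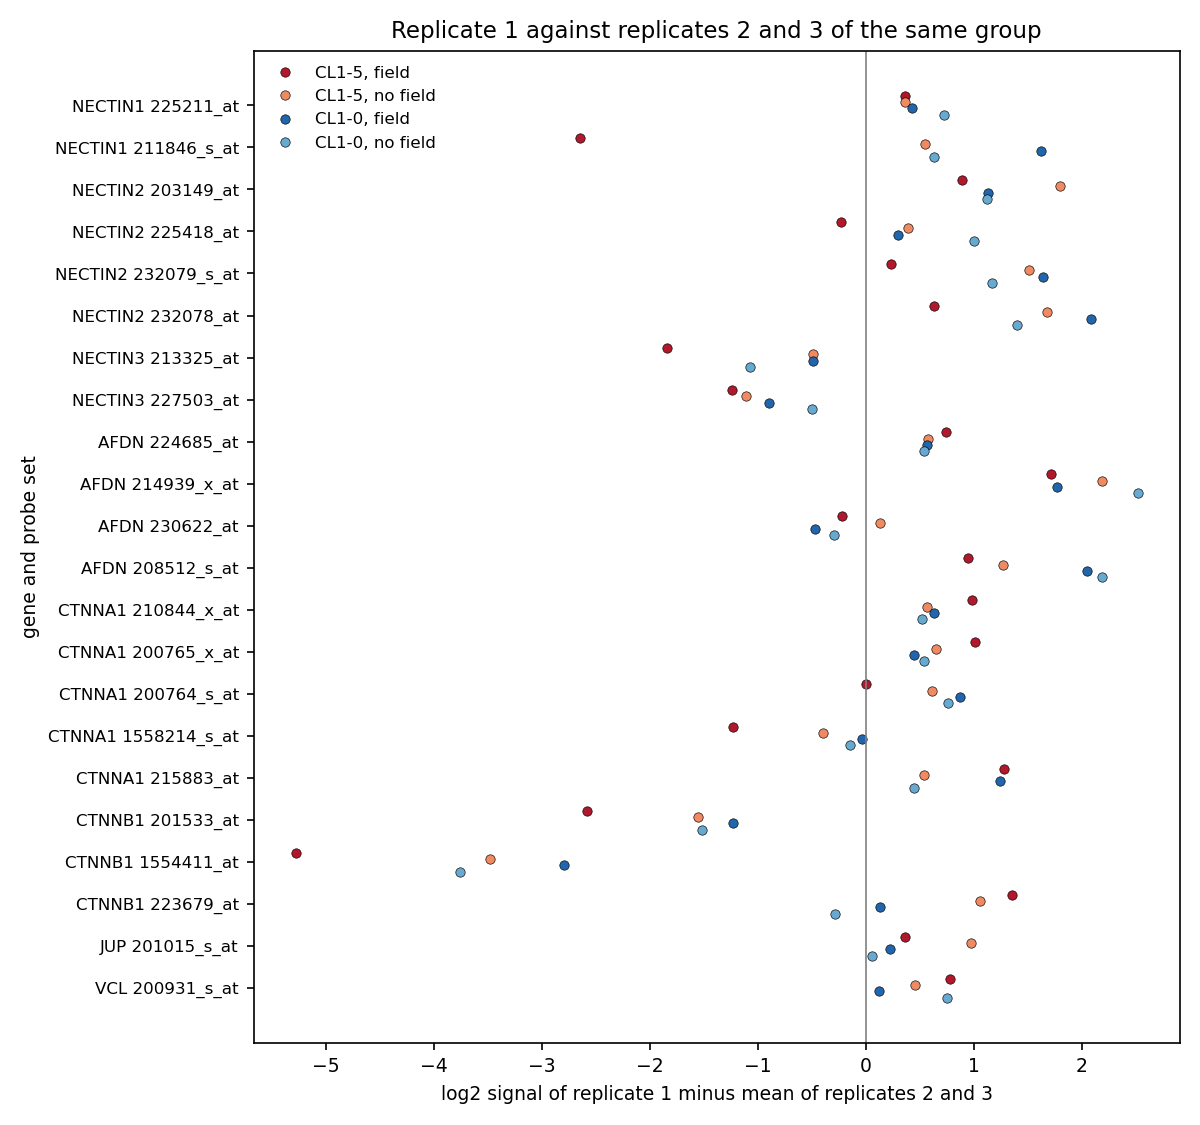
Log2 signal of replicate 1 minus the mean of replicates 2 and 3 (x axis) for the 22 tested probe sets (y axis), 1 point per group. All 4 groups of CTNNB1 201533_at and 1554411_at lie left of 0, and all 4 groups of NECTIN2 203149_at and AFDN 214939_x_at lie right of 0.

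CTNNA1, alpha-catenin, and VCL, vinculin, passed no test between the lines in the reported fit. The brightest CTNNA1 set, 210844_x_at, had signals of 21633, 11595 and 10315 in CL1-5 under the field, against 15746, 9857 and 10463 in CL1-0 under the field. Without the field the signals were 13189, 8140.1 and 9746.5 in CL1-5, against 16328, 11053 and 11722 in CL1-0. The lines overlapped in both states. The differences were -0.34 ± 0.30 without the field (95% interval -1.0 to 0.32) and 0.22 ± 0.30 under it (-0.44 to 0.89).

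The other CTNNA1 sets differed by -0.54 to 0.47 without the field and -0.45 to -0.09 under it. By 1558214_s_at the CL1-5 arrays without the field, at 2697, 3393 and 3718, all lay below the CL1-0 arrays without it, at 4411, 4432 and 5363, with a difference of -0.54 ± 0.30 and a limma adjusted p of 0.311, against -0.46 ± 0.14 and 0.0333 on the arrays with the control RNA signal. For 200765_x_at the difference without the field was -0.46 ± 0.30, with a limma adjusted p of 0.422, or 0.0187 with the replicate block. It was -0.50 ± 0.12 on the arrays with the control RNA signal, with a limma adjusted p of 0.012.

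VCL 200931_s_at had signals of 11192, 6225 and 6868 in CL1-5 under the field, against 7178, 6437 and 6758 in CL1-0 under the field. Without the field they were 9543, 6674 and 7222 in CL1-5, against 9385, 4728 and 6576 in CL1-0. The lines overlapped in both states. The differences were 0.22 ± 0.28 without the field (95% interval -0.39 to 0.82) and 0.21 ± 0.28 under it (-0.40 to 0.81), so differences within these intervals were not resolved. They were 0.32 ± 0.15 and -0.01 ± 0.15 on the arrays with the control RNA signal (limma adjusted p = 0.173 and 0.968). The second VCL set, 200930_s_at, had signals of 13.9 to 70.8 and was not tested.

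The 4 probe sets shared by CTNND1, p120 catenin, and its readthrough transcript are no members, and their signal cannot be assigned to either alone. The set 208407_s_at differed by -0.70 ± 0.30 without the field and -0.78 ± 0.30 under it, and did not pass the test (limma adjusted p = 0.173 and 0.117, and 0.0044 and 0.00204 with the replicate block). It differed by -0.68 ± 0.20 and -0.72 ± 0.20 on the arrays with the control RNA signal (limma adjusted p = 0.0324 and 0.0249). The other 3 sets differed by 0.23 to 0.31 without the field and -0.38 to 0.09 under it.

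Across members, the lines were apart, with no overlap of their arrays, for 6 of 22 probe sets without the field, 4 above and 2 below, and for 7 of 22 under it, 4 above and 3 below. Over all tested probe sets these shares were 28.8% without the field (14.3% above, 14.5% below) and 30.8% under it (14.6% above, 16.2% below), so the members were near the whole array in this respect. Under the field the sets apart were those of NECTIN3, JUP and NECTIN1 225211_at, 2 sets of NECTIN2 and AFDN 230622_at.

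The field comparisons called 0 of 22 members in CL1-5, in CL1-0, on the average of the lines and in the contrast of their field responses, in limma with or without the replicate block. Over all tested probe sets, 0% passed in each of the 4 comparisons without the block. At an unadjusted p under 0.05, 1 member passed in CL1-5 and 1 in the contrast of the field responses, NECTIN1 225211_at in both, and 0 in CL1-0 and on the average. Over all probe sets, 531, 337, 296 and 382 had such a p in CL1-5, in CL1-0, on the average and in the contrast of the field responses. The members' field differences ran from -1.04 to 0.47 in CL1-5, with a median of -0.09, and from -1.38 to 1.56 in CL1-0, with a median of -0.03. Their standard errors were 0.277 to 1.55, so the size of change that could be seen varied widely between members.

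For several members the field intervals were narrow enough to bound the difference. NECTIN2 225418_at differed by -0.08 (95% interval -0.76 to 0.60) in CL1-5 and 0.09 (-0.59 to 0.77) in CL1-0. VCL 200931_s_at differed by 0.02 (-0.59 to 0.62) in CL1-5 and 0.03 (-0.57 to 0.64) in CL1-0. For CTNNB1 201533_at the intervals of the reported fit were wider, -1.74 to 1.38 in CL1-5 and -1.52 to 1.60 in CL1-0. That fit did not use the replicate numbers, so the low replicate 1 of every group counts in these widths as spread. The pairs of the same replicate number gave -0.87, 0.34 and -0.01 in CL1-5 and 0.23, 0.02 and -0.12 in CL1-0. NECTIN3 213325_at differed by -0.48 ± 0.49 in CL1-5, where replicate 1 gave -1.38 and the others -0.20 and 0.14, and by 0.34 ± 0.49 in CL1-0.

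Arrays of the field group and of the group without the field were apart for 1 of 22 members in CL1-5, NECTIN1 225211_at, and for 1 of 22 in CL1-0, CTNNA1 1558214_s_at. Over all tested probe sets the shares were 5.47% in CL1-5 (2.64% above, 2.83% below) and 3.68% in CL1-0 (2.16% above, 1.52% below). By 1558214_s_at, CTNNA1 had signals of 4045, 4024 and 4287 in CL1-0 under the field, against 4411, 4432 and 5363 in CL1-0 without it, a difference of -0.20 ± 0.30 (unadjusted limma p of 0.521).

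**Figure D5:**
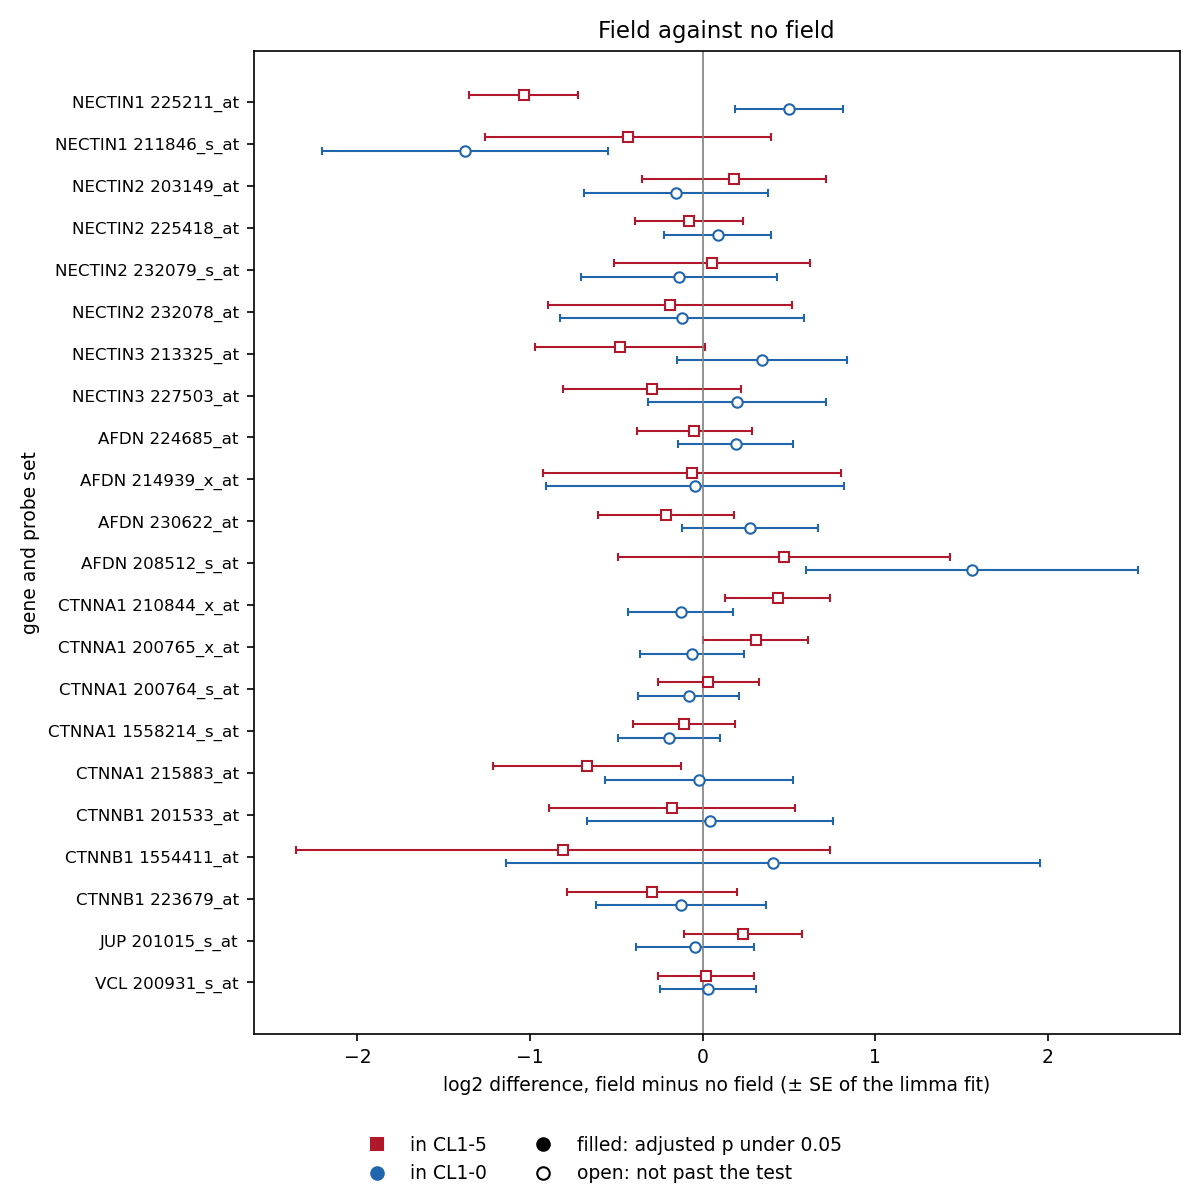
Log2 difference of field minus no field (x axis, ± SE of the limma fit) for the 22 tested probe sets (y axis), in CL1-5 (squares) and CL1-0 (circles); all symbols are open because none had a limma adjusted p under 0.05. NECTIN1 225211_at lies at -1.04 in CL1-5 and 0.50 in CL1-0.

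The partners of these genes in the junction were followed through a list of 69 cadherins, nectin relatives, actin linkers, small GTPases, kinases, phosphatases and beta-catenin partners, each by its brightest probe set. Of these 64 are on the array and 54 were tested. Without the field 5 were higher and 5 lower in CL1-5, where 8.01% and 7.63% of genes on the array were, and under it 3 were higher and 7 lower, where 8.79% and 8.27% were. With the replicate block 9 were higher and 12 lower without the field, where 16.2% and 18.1% of genes were, and 8 were higher and 12 lower under it, where 16.9% and 20% were. The median partner differed by -0.02 without the field and -0.06 under it.

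Both tested classical cadherins, which bind the catenins, changed in opposite directions. CDH2, N-cadherin, was at a log2 signal of 8.97 ± 1.78 under the field and 9.03 ± 1.51 without it in CL1-5, against 4.42 ± 1.83 and 3.51 ± 1.31 in CL1-0 (SD, n = 3). Its difference was 5.52 ± 1.13 without the field and 4.55 ± 1.13 under it (limma adjusted p = 0.0073 and 0.0199). All CL1-0 arrays were below their median, so CDH2 was tested through CL1-5 arrays alone and a difference of this sign was built in. The size of the difference is uncertain: with values below the median raised to it, it was 3.05 and 2.93. CDH1, E-cadherin, was at 5.90 ± 1.05 and 5.77 ± 1.72 in CL1-5, against 9.51 ± 1.31 and 9.22 ± 1.55 in CL1-0, under and without the field. Its difference was -3.46 ± 0.99 without the field and -3.61 ± 0.99 under it (limma adjusted p = 0.0413 and 0.0316). CDH1 was not called in 10 of 24 alternatives without the field (adjusted p up to 0.163) and in 4 under it (up to 0.126), those without replicate 2 or 3 of either line under the field. CDH2 was called in all 23 alternatives without the field, and under it lost its call in 3 of 23 (up to 0.0811), when CL1-5 under the field lacked replicate 2 or 3 and when CL1-0 under the field lacked replicate 2.

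Among actin linkers, ENAH, which promotes filament elongation, was lower in CL1-5, with differences of -2.96 ± 0.18 without the field and -2.82 ± 0.18 under it (limma adjusted p = 1.84e-06 and 2.46e-06). AJUBA, a LIM protein that binds alpha-catenin, was lower, with differences of -1.56 ± 0.22 and -1.50 ± 0.22 (limma adjusted p = 0.000676 and 0.000903). ACTN4, an actin cross-linker, was higher, with differences of 2.32 ± 0.55 and 1.92 ± 0.55 (limma adjusted p = 0.0169 and 0.0392), and lost its call without the field when replicate 1 of CL1-5 or replicate 2 or 3 of CL1-0 was left out (up to 0.0781) and under it in 7 of 24 alternatives (up to 0.15). PTPRK, a receptor phosphatase that acts on junction proteins, was lower, with differences of -1.58 ± 0.28 and -1.56 ± 0.28 (limma adjusted p = 0.00314 and 0.00332).

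LEF1, the nuclear partner of beta-catenin, was higher in CL1-5 without the field by 3.87 ± 0.64 (limma adjusted p = 0.00196), and under it differed by 1.5 ± 0.64 (adjusted p = 0.162). All 6 CL1-0 arrays were below their median, and with such values raised to the median the first difference was 0.74. LEF1 also had the smallest unadjusted p of the partners for the field in CL1-0, 2.23 ± 0.64 (unadjusted p of 0.00474, limma adjusted p = 1), which was 0.06 with low values raised. SORBS2, a linker of actin and adhesion sites, differed without the field by 2.92 ± 0.83 (limma adjusted p = 0.0399), or 0.38 with low values raised, and lost its call in 10 of 23 alternatives (adjusted p up to 0.345). One of these was the fit on the arrays with the control RNA signal, where it differed by 2.16 ± 0.95 (limma adjusted p = 0.131). LEF1 and SORBS2, like CDH2, passed the filter on low values through CL1-5 arrays alone. A difference of this sign was thus built into their being tested. No partner passed the test for the field in limma, with or without the block.

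The genes whose log2 signal followed a member most closely over the 12 arrays were ranked by Pearson's r among 13837 genes, as a description of 4 groups that share 2 lines and replicate numbers. For NECTIN3 213325_at they were PDP1 (r = 0.992), ZNF595 (r = 0.988) and MAP7D2 (r = 0.986). For JUP they were BLVRB (r = 0.984), TAOK1 (r = 0.984) and OR7E37P (r = 0.979). For NECTIN1 225211_at the likeness was lower, with ANKRD36C at r = 0.85 and CILP2 and DMPK at r = 0.809.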

How the data were processed

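RNA of 12 samples was hybridised to 12 Affymetrix arrays, 3 for each line and field state, from 10 µg of total RNA per the labels' protocols. The deposited signals are linear intensity values that the authors obtained with MAS5, per the submitters' processing notes. Neither its version nor detection calls are given in the sources used here. The trimmed mean of each array was equal on all arrays, so no scaling was added. Intensity values under 1 (3691 values) were set to 1 and the deposited intensity was taken to log2.

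Non-control probe sets above their array's median on at least 3 arrays were tested (31890 of 54675). Group means of the 4 groups were fitted over the 12 arrays with lmFit and eBayes (trend option) of limma 3.58.1, run in R 4.3.3, with data.table at version 1.17.8, and with Benjamini-Hochberg adjustment over all tested probe sets and a threshold of 0.05. The 6 comparisons set field against no field (per line, averaged, and as a contrast of both lines) and CL1-5 against CL1-0 (under the field and without it). The number of arrays limits the precision. The fit was tested on simulated data. Symbols are those of GEO's platform annotation.

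Members and lists were chosen with earlier results of these data known. Genes named beyond the members are up to 6 partners per comparison between lines with the largest difference among those past the test, the 2 with the smallest p where none passed, and the 3 nearest in likeness to NECTIN3, JUP and NECTIN1. Only some of these are printed.

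The labels give replicate numbers 1 to 3 in each group. Deviations from the group means correlated, between arrays of 1 number, at 0.621, 0.454 and 0.27 in CL1-5 and at 0.665, 0.396 and 0.385 in CL1-0, all above 0.1. The highest correlation with an array of another number was -0.389, 0.32 and 0.32 in CL1-5, above its own pair for replicate 3, and -0.417, 0.222 and 0.322 in CL1-0. The reported fit did not use the replicate numbers. They were taken to pair the arrays only for the pair differences and the fit with a replicate block. The replicate block fit is given where it changes a call of a member, a CTNND1 set, or a marker or partner named. The replicate 1 arrays lack the added control RNA signal. They were also left out, or fitted as a block. Alternatives were quantile normalization, median centring, another pseudocount, low values raised to the array median, other filters, no trend, array weights, 1 or averaged probe sets per gene, only the compared arrays, and each array left out in turn.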

Additional observations from a re-analysis of the deposited data

Results flagged for a closer look

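For 3 of the 22 tested members, every pair of the same replicate number moved one way with the field in CL1-5 and the other way in CL1-0, as did 4.66% of all tested probe sets. NECTIN1 225211_at was lower under the field in all 3 CL1-5 pairs and higher in all 3 CL1-0 pairs, and the field response in CL1-5 minus that in CL1-0 was -1.54 on the log2 scale. CTNNA1, alpha-catenin, had pairs the other way round in 2 of its 5 probe sets, and the same contrast was 0.56 for 210844_x_at and 0.37 for 200765_x_at. The CL1-5 pairs of 210844_x_at were 0.71, 0.51 and 0.08, and its CL1-0 pairs were -0.05, -0.17 and -0.16. For 200765_x_at they were 0.55, 0.25 and 0.12 in CL1-5 and -0.13, -0.01 and -0.05 in CL1-0. These 2 sets correlate at r = 0.931 over the arrays and share a gene, so they are not separate observations. The other CTNNA1 sets did not show this pattern, and 215883_at had CL1-5 pairs of -0.18, -0.95 and -0.89. With the sets of CTNNA1 averaged, the contrast was 0.10 ± 0.34. The limma test of the difference between the field responses of the lines gave an adjusted p of 0.9999 for all 3 members flagged, and 0.881 with the replicate block.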

How the results depend on the processing

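The count of members past the test between the lines was not the same in every setting. Without the field it was 4 of 22 in the reported fit, 7 with array weights, 9 with the replicate block, 9 with the control RNA batch as a block and 8 on the arrays with the control RNA signal only. Under the field it was 4, and 8, 9, 9 and 8 in the same settings. Over all 31890 probe sets the counts without the field were 3864, then 8343, 9094, 8994 and 7629, and under it 4286, then 8729, 10069, 9977 and 8077, so the members' count moved with that of the whole array. Leaving out 1 array gave 3 to 4 without the field and 2 to 5 under it, with 2 without replicate 3 of CL1-5 under the field. The genes with a probe set called under the field were 4, against 2 with a gene's probe sets averaged. The cause was not tested. The field counts were 0 in every setting run. JUP, NECTIN2 225418_at and, without the field, NECTIN3 213325_at passed the test in all 24 alternatives. CTNNB1 201533_at under the field was 0.42 on the arrays with the control RNA signal, against -0.03 on all arrays, and the cause was not tested. ENAH, AJUBA and PTPRK passed in all alternatives in both field states, while CDH1, ACTN4 and SORBS2 lost their calls in 4 to 10 of them in at least 1 state. The dim probe sets have no detection calls here, and folds of low signals depend on the floor.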
